A study of Homo sapiens with 6 samples.

Results

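The genes described are 54 of ribosome biogenesis and the nucleolus, taken as the rows of a deposited count table of 60664 genes whose symbol is on a list of pathway genes. By role they are 9 genes of RNA polymerase I transcription, 9 of the small nucleolar ribonucleoproteins (snoRNPs), 14 of the small-subunit processome and later small-subunit assembly, 17 of large-subunit assembly and 5 other nucleolar genes. RNA was measured in H7, an established line of human embryonic stem cells kept on Matrigel in mTeSR Plus medium. A line with knockdown of SAMD4A, an RNA-binding protein (3 libraries), was set against control H7 cells, which the series text also calls wild type (3 libraries). No other allele or agent is named for either group. The sources used here do not give the knockdown construct, nor whether the line is 1 clone. Poly-A selected RNA was sequenced, so ribosomal RNA itself and most snoRNAs were not measured, and only the messages of the machinery that makes ribosomes are described.

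Ribosomes are built in the nucleolus. RNA polymerase I copies the ribosomal RNA genes into a long precursor, snoRNPs modify its bases and sugars, and the processome folds and cuts it into the small-subunit RNA. Separate sets of assembly factors, many of them helicases and GTPases, build the large subunit. Pluripotent stem cells divide fast and have prominent nucleoli, and the transcription factor MYC is a known activator of many of these genes.

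SAMD4A itself had 27.4, 28.6 and 28.5 CPM in the knockdown libraries, against 52.2, 56 and 49.8 CPM in the control libraries (log2 fold change -0.90 ± 0.07, SE, edgeR adjusted p = 9e-08), so its message was lower in all 3 libraries labelled knockdown. CPM here means counts per 1e+06 counts of a library after TMM scaling. Library totals ran from 19270688 to 21355171 counts. The 8 markers of pluripotent cells summed to 9540 to 9970 CPM in knockdown and 8100 to 8390 CPM in control libraries. Without DNMT3B the other 7 summed to 6856 to 7203 CPM in knockdown and 6810 to 7094 CPM in control libraries. DNMT3B, POU5F1 and TDGF1 were called higher, and NANOG, SALL4 and PODXL lower. Knockdown replicate 1 stood apart, with 8 neuroectoderm markers summing to 122 CPM in it, 23.0 CPM in replicate 2 and 21.9 CPM in replicate 3, against 91.6 to 103 CPM in control. NEUROG2 and HES5 of that list were at or near 0 in all libraries. The 8 mesendoderm markers summed to 2.59 to 10.2 CPM in knockdown and 3.17 to 4.52 CPM in control libraries, and the 8 trophoblast and amnion markers to 10.3 to 13.7 CPM in knockdown and 17.1 to 22.2 CPM in control libraries. The part of these differences in the results was not tested. Nothing in the labels says that the replicates were separate cultures, so p-values measure only the spread between these libraries, which may be technical, and a lower level cannot be told apart from fewer cells that express the gene.

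Most of the ribosome biogenesis genes that passed the test were higher in knockdown cells, by modest amounts. Of the 54 genes, all 54 passed the low-count filter, 32 were called higher, 4 were called lower and 18 were not called (edgeR quasi-likelihood test, adjusted p under 0.05). The 4 lower genes were TAF1D, NOP58, DKC1 and RRN3. Among all 17258 genes tested, 51.7% were called, 26.1% as higher and 25.6% as lower. The members stood at 66.7% called, 59.3% higher and 7.41% lower. The median log2 fold change of the members was 0.21, and that of all genes tested was -0.01. A rise of more than 1.5 fold was seen in 4 members, NOP16, UTP20, RRP9 and NCL, and no member reached 2 fold. Among the 17258 genes tested, 1440 were called with a rise of more than 1.5 fold. A change of more than 2 fold in either direction was called in 1516 of them. Large rises were thus not more frequent in the members than in all genes. Knockdown and control libraries did not overlap in 40 members, 36 of them with the knockdown libraries on top, while 58.3% of all genes tested had groups that did not overlap.

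These directions depend in part on the scale. Mitochondrial transcripts took 5.03% ± 0.142 of counts in knockdown and 3.39% ± 0.0766 in control libraries (SD, n = 3 each). With mitochondrial and the 10 most abundant genes removed, the members again gave 32 higher and 4 lower. TMM factors were computed anew there, and TMM itself trims extreme genes, so little change could follow. The part of the mitochondrial share in the scale was not tested. With total counts as the only scaling, the median of all genes tested moved to -0.17 and that of the members to 0.05. A change of scaling moves all genes by nearly the same amount. The difference between both medians, 0.22, therefore could not change. With total counts only, 20 members were called higher and 11 lower, against 2704 higher and 6410 lower among all genes. The 20 were all among the 32 above, and the 4 lower genes remained lower, which follows largely from such a common downward move. Counts of the members made up 1.14% ± 0.00562 of knockdown and 1.04% ± 0.0151 of control libraries (SD, n = 3 each). The strand setting of the counting is unknown, and 14 members overlap a gene on the other strand that has at least 10% of their mean count (POLR1C, RRN3, TAF1D, TCOF1, NHP2, NOP14, UTP15, PES1, WDR12, BRIX1, EBNA1BP2, GNL3, NIP7, NOP16), so their levels are uncertain. Among the other 40 members 22 were higher and 2 lower.

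**Figure D1:**
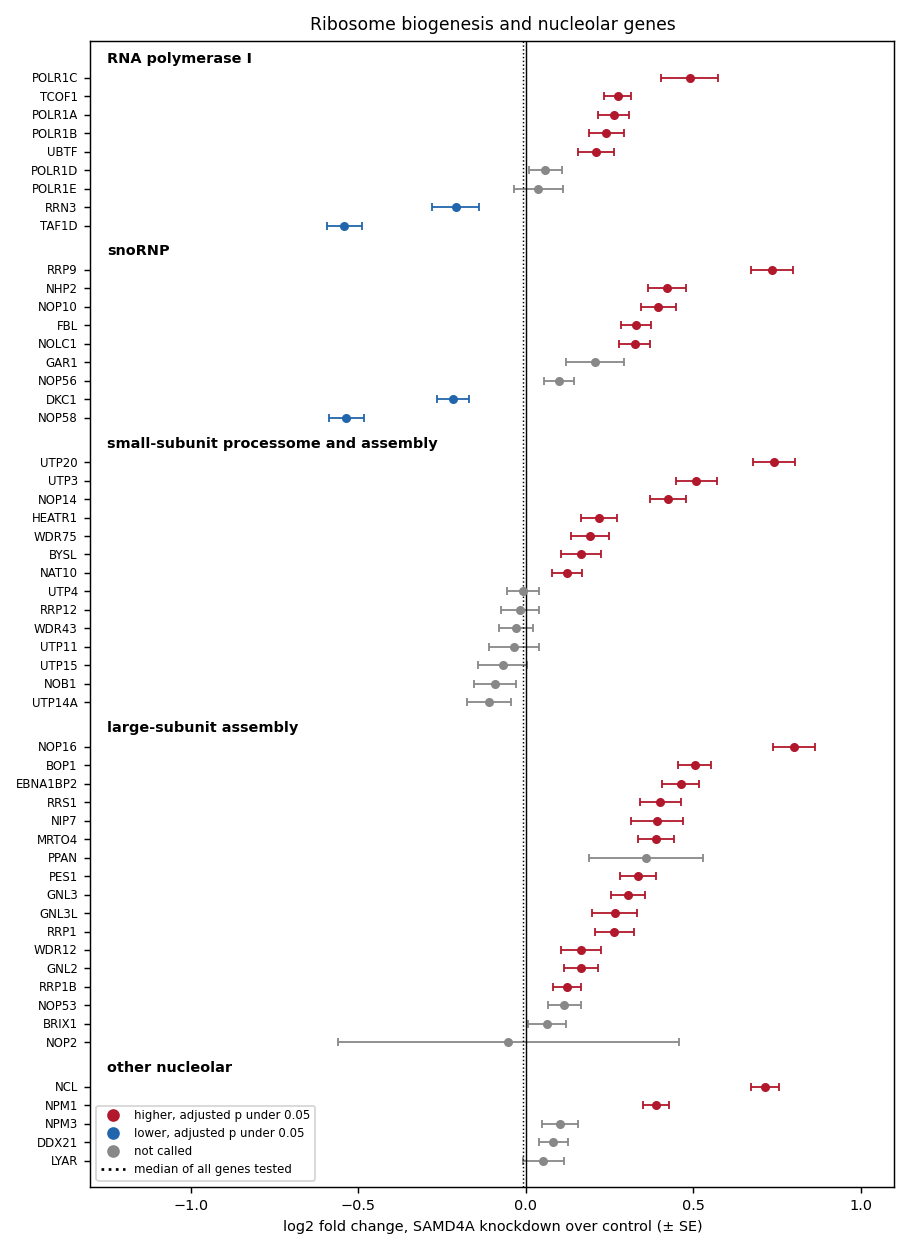
Log2 fold change of each of the 54 genes, SAMD4A knockdown over control, with its standard error (bars), grouped by role. Red points were called higher (32 genes) and blue points lower (4 genes) by the edgeR test at an adjusted p under 0.05. The dotted line is the median of all genes tested, -0.01, and moves to -0.17 with total counts as the only scaling, where 20 members were called higher and 11 lower.

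The shift of the members was alike in the 3 knockdown libraries. Taken against the mean of the controls, the median member stood at a log2 level of 0.23 in knockdown replicate 1, 0.21 in replicate 2 and 0.18 in replicate 3. The control libraries lay at -0.01, 0.00 and 0.01 on the same scale. Replicate 1, which stood apart in neuroectoderm markers, was close to the other knockdown libraries here. Leaving it out gave 32 members higher and 5 lower.

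**Figure D2:**
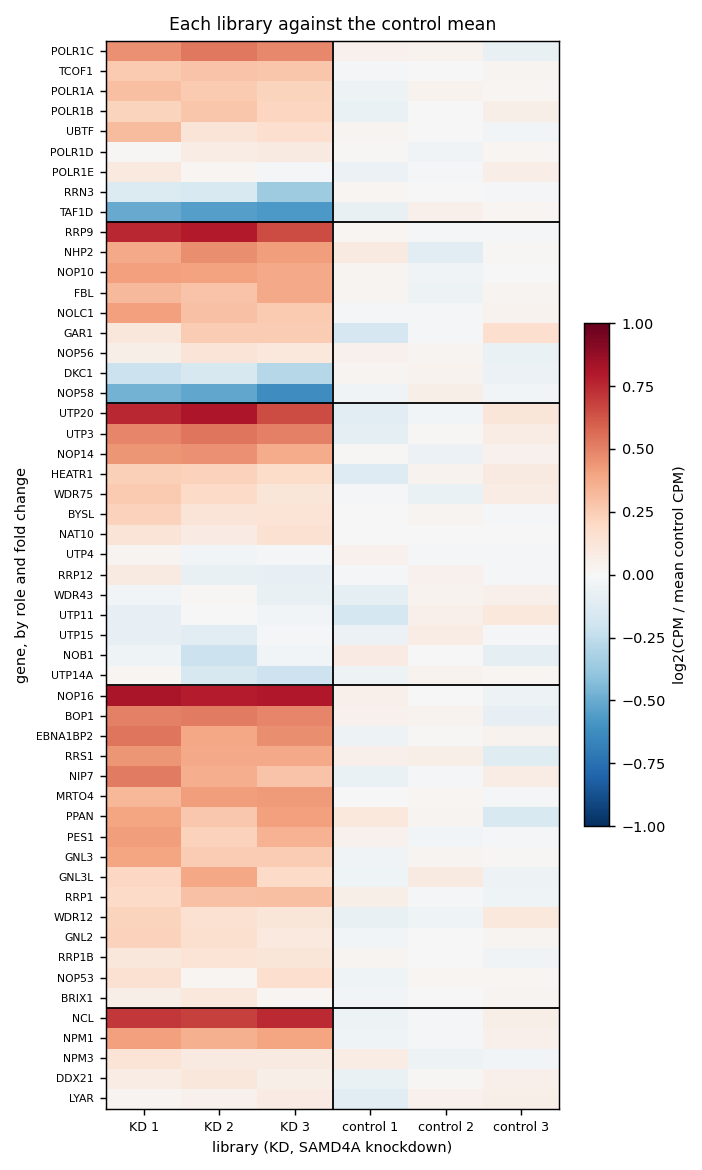
Log2 of the level in each library over the mean control level, for 53 of the 54 genes (NOP2 is left out because of its very low counts), with knockdown libraries left of control libraries and lines between the roles. The 3 knockdown columns look alike, with NOP16, UTP20, RRP9 and NCL darkest red and TAF1D and NOP58 darkest blue.

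Promoter sequence is a feature that the choice of genes did not use. Of the 54 genes, 46 matched an entry of the RefSeq promoter table (GRCh38.p14), which holds 250 bases before and 50 bases after each gene start. The letters CACGTG, the E-box that MYC and its partner MAX can bind, occurred in 15 of the 46 windows (32.6%). The share was 9.81% of the windows of tested genes and 7.43% of all 27305 windows, and since CACGTG is its own reverse complement both strands were searched at once. By call, 11 of 27 members called higher had it, 0 of 3 called lower and 4 of 16 not called. By role, it occurred in 3 of 7 snoRNP windows (FBL, NOP10, RRP9), 7 of 13 small-subunit windows (NOP14, UTP4, UTP14A, UTP20, WDR43, BYSL, NAT10), 5 of 14 large-subunit windows (PES1, EBNA1BP2, GNL2, MRTO4, NOP2), 0 of 7 RNA polymerase I windows and 0 of 5 others. Members with it had a median log2 fold change of 0.33 and those without it 0.21, so both medians were above 0. The letters TCGCGA, also a palindrome, were in 8 of 46 member windows (17.4%) and 5.41% of windows of tested genes. GGGCGG, on either strand, was in 67.4% of member windows and 69.4% of those of tested genes, CCAAT in 30.4% of member windows and 36.1% of those of tested genes, and TATAAA in 4.35% of member windows and 5.77% of those of tested genes. The NRF1 motif was in 2 of 46 member windows and 2.16% of those of tested genes. These matches are descriptions of letters, not of bound sites.

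The windows printed here run from 200 bases before to 30 bases after the start. They are those of UTP20, RRP9 and NOP14, which rose the most among members with CACGTG within these bases. EBNA1BP2 rose more (0.46) than NOP14 (0.42), but its CACGTG lay outside the printed bases. The windows of TAF1D, DKC1 and RRN3, the lower members with a table entry, are printed as well. They are read along the strand of the gene in GRCh38.p14, and capitals mark any of the searched letters in either orientation.
UTP20, chr12:101279905-101280134, plus strand: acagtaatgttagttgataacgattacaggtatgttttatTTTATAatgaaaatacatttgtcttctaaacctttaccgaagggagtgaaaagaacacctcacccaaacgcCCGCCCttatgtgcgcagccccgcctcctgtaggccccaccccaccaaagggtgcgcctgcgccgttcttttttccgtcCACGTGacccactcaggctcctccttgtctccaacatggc
RRP9, chr3:51941875-51942104, minus strand: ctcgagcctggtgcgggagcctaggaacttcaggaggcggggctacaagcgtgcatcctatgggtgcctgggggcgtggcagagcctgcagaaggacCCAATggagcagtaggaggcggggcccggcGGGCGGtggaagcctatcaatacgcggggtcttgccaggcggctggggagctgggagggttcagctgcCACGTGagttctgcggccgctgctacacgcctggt
NOP14, chr4:2963377-2963606, minus strand: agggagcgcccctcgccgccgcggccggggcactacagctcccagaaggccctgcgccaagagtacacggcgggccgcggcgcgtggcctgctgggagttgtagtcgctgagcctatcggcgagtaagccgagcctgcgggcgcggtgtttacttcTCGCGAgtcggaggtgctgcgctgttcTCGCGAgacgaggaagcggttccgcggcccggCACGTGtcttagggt
TAF1D, chr11:93741466-93741695, minus strand: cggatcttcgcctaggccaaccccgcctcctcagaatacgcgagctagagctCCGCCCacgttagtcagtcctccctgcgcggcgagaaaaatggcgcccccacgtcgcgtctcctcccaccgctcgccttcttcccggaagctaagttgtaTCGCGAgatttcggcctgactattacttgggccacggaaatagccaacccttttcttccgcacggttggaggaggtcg
DKC1, chrX:154762664-154762893, plus strand: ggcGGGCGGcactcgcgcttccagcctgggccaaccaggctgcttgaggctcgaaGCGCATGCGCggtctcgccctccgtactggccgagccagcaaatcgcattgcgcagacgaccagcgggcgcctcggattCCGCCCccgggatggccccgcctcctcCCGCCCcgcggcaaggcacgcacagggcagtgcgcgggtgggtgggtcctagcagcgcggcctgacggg
RRN3, chr16:15094306-15094535, minus strand: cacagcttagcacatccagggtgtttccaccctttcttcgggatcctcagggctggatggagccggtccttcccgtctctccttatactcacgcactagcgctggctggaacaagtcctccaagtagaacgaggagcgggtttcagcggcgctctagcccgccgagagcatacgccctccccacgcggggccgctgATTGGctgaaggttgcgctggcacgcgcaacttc

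Counting the start as base 1, CACGTG began at base -10 in UTP20, -5 in RRP9 and 16 in NOP14. The TAF1D, DKC1 and RRN3 windows held no CACGTG. NOP14 held TCGCGA at 2 places, at -44 and -17, and TAF1D held it once, at -48.

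Of the RNA polymerase I genes 55.6% were called higher and 22.2% lower, beside 26.1% and 25.6% of all genes tested. Of 9 genes, 5 were called higher (POLR1A, POLR1B, POLR1C, UBTF, TCOF1), 2 lower (TAF1D, RRN3) and 2 not called (POLR1D, POLR1E), and the median log2 fold change was 0.21. With total counts only, 2 were higher and the same 2 lower. POLR1A, the largest catalytic subunit, had 192, 187 and 181 CPM in the knockdown libraries, against 150.3, 159 and 158 CPM in the control libraries. POLR1B, its partner in the catalytic core, had 119, 124 and 118 CPM in the knockdown libraries, against 97.4, 102 and 106 CPM in the control libraries. The groups did not overlap for either subunit, and the log2 fold changes were 0.26 ± 0.05 (SE, edgeR adjusted p = 0.00027) for POLR1A and 0.24 ± 0.05 (edgeR adjusted p = 0.0012) for POLR1B. POLR1C, which forms an assembly pair with POLR1D and is shared with RNA polymerase III, was at 24.6, 25.7 and 24.9 CPM in the knockdown libraries, against 18.4, 18.3 and 16.9 CPM in the control libraries, and all 3 knockdown values lay above all controls (log2 fold change 0.49 ± 0.09, edgeR adjusted p = 0.0002). Its partner POLR1D had 119.9 ± 3.53 CPM in knockdown and 115 ± 2.43 CPM in control (SD, n = 3 each) and was not called (log2 fold change 0.06, edgeR adjusted p = 0.35).

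UBTF, the factor that coats active ribosomal RNA genes, had 169.6, 149 and 153 CPM in the knockdown libraries, against 139, 136 and 133 CPM in the control libraries. Its highest value was that of knockdown replicate 1, and the groups were apart (log2 fold change 0.21 ± 0.05, edgeR adjusted p = 0.0047). TCOF1, which encodes the nucleolar scaffold treacle, measured 456, 464 and 463 CPM in the knockdown libraries, against 377, 379 and 388 CPM in the control libraries. The knockdown libraries were tightly grouped above the controls (log2 fold change 0.27 ± 0.04, edgeR adjusted p = 4.4e-05). POLR1E, which with POLR1G forms a dimer that aids initiation, overlapped between groups at 37.6 ± 1.46 CPM in knockdown and 36.6 ± 1.55 CPM in control (SD, n = 3 each; edgeR adjusted p = 0.7).

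TAF1D (GRCh38 chr11:93729948-93784391, minus strand), a subunit of the promoter selectivity factor SL1, gave with NOP58 the largest falls of the 54 genes. It had 102, 99.2 and 97.5 CPM in the knockdown libraries, against 138, 150.5 and 147 CPM in the control libraries (log2 fold change -0.54 ± 0.05, edgeR adjusted p = 5e-07). Every knockdown value was below every control value. RRN3 (chr16:15060033-15094311, minus strand), the factor that ties the polymerase to the promoter, had 51.2, 50.5 and 44.1 CPM in the knockdown libraries, against 57.1, 56.2 and 55.4 CPM in the control libraries (log2 fold change -0.21 ± 0.07, edgeR adjusted p = 0.02). Here the groups were apart by a smaller gap, knockdown replicate 3 was the lowest library, and the call was lost without that library (-0.14), without control replicate 1 (-0.20) or 2 (-0.21), and with a correction for GC content and length (-0.15). The RRN3 row has 4 pseudogene rows in the table, of which the most abundant had a mean count of 159 against 1058 for RRN3, and PDXDC1 overlaps it on the other strand with a mean count of 3390, so its level is uncertain. Ratios of counts within a library do not depend on the scaling. TAF1D to POLR1B was 0.827 ± 0.0273 in knockdown and 1.42 ± 0.0420 in control, and RRN3 to UBTF was 0.310 ± 0.0268 in knockdown and 0.413 ± 0.00156 in control (SD, n = 3 each). Neither ratio overlapped between groups. All ratios given here were of pairs chosen after their values were seen.

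SnoRNP genes were called in both directions, 55.6% higher and 22.2% lower, the last near the 25.6% of all genes tested. Of 9 genes, 5 were called higher (RRP9, NHP2, NOP10, FBL, NOLC1), 2 lower (NOP58, DKC1) and 2 not called (NOP56, GAR1), with a median log2 fold change of 0.32, and the numbers were also 5 and 2 with total counts only. In the box C/D particle, which methylates ribose, the methyltransferase FBL had 421, 411 and 438 CPM in the knockdown libraries, against 344, 325 and 343 CPM in the control libraries. The scaffold protein NOP56 had 372, 391 and 384 CPM in the knockdown libraries, against 367, 364 and 340.5 CPM in the control libraries. Its paralog in the same particle, NOP58 (chr2:202265736-202303661, plus strand), had 152, 147 and 138 CPM in the knockdown libraries, against 206, 220.0 and 208 CPM in the control libraries. FBL was thus higher (log2 fold change 0.33 ± 0.04, edgeR adjusted p = 1.9e-05), NOP58 lower (-0.54 ± 0.05, edgeR adjusted p = 4.9e-07), and NOP56 missed the threshold although its groups did not overlap (0.10 ± 0.05, edgeR adjusted p = 0.077). The count ratio of NOP58 to FBL was 0.345 ± 0.0259 in knockdown and 0.627 ± 0.0434 in control, that of NOP58 to NOP56 was 0.381 ± 0.0258 in knockdown and 0.592 ± 0.0266 in control, and that of NOP56 to FBL was 0.904 ± 0.0405 in knockdown and 1.06 ± 0.0639 in control (SD, n = 3 each). None of these ratios overlapped between groups.

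The box H/ACA particle, which makes pseudouridine, was split as well, with its catalytic protein lower and 2 of its small partners higher. DKC1 (chrX:154762742-154777689, plus strand), the pseudouridine synthase, had 192, 199.8 and 183 CPM in the knockdown libraries, against 226, 228 and 214 CPM in the control libraries. NHP2, a core partner, had 144, 153 and 148 CPM in the knockdown libraries, against 118, 103 and 112 CPM in the control libraries. DKC1 was lower in each knockdown library than in any control (log2 fold change -0.22 ± 0.05, edgeR adjusted p = 0.0016), and NHP2 was higher in each (0.42 ± 0.06, edgeR adjusted p = 1.6e-05). NOP10, the smallest core protein, averaged 97.5 ± 0.863 CPM in knockdown and 74.1 ± 1.63 CPM in control (SD, n = 3 each) and was called higher (0.40 ± 0.05, edgeR adjusted p = 1.2e-05). GAR1 averaged 43.8 ± 2.31 CPM in knockdown and 37.9 ± 4.47 CPM in control (SD, n = 3 each), its groups overlapped and it was not called (0.21 ± 0.09, edgeR adjusted p = 0.057). The ratio of DKC1 to NHP2 counts was 1.29 ± 0.0519 in knockdown and 2.02 ± 0.176 in control, that of DKC1 to NOP10 1.96 ± 0.0742 in knockdown and 3.01 ± 0.137 in control, and that of DKC1 to GAR1 4.39 ± 0.308 in knockdown and 5.95 ± 0.860 in control (SD, n = 3 each). The groups were apart in each of the 3 ratios.

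RRP9 (chr3:51933429-51941904, minus strand), a protein of the U3 snoRNP that guides processome cleavages, had 72.4, 74 and 67.1 CPM in the knockdown libraries, against 43.4, 42.6 and 42.5 CPM in the control libraries. All 3 knockdown values were far above the controls, which were nearly equal (log2 fold change 0.73 ± 0.06, edgeR adjusted p = 1.6e-07). NOLC1, a chaperone of snoRNPs, averaged 496 ± 28.2 CPM in knockdown and 396 ± 7.55 CPM in control (SD, n = 3 each; log2 fold change 0.32 ± 0.05, edgeR adjusted p = 3.7e-05). NHP2 shares its locus with RMND5B on the other strand, which had a mean count of 1770 against 2597 for NHP2, so its level is uncertain.

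**Figure D3:**
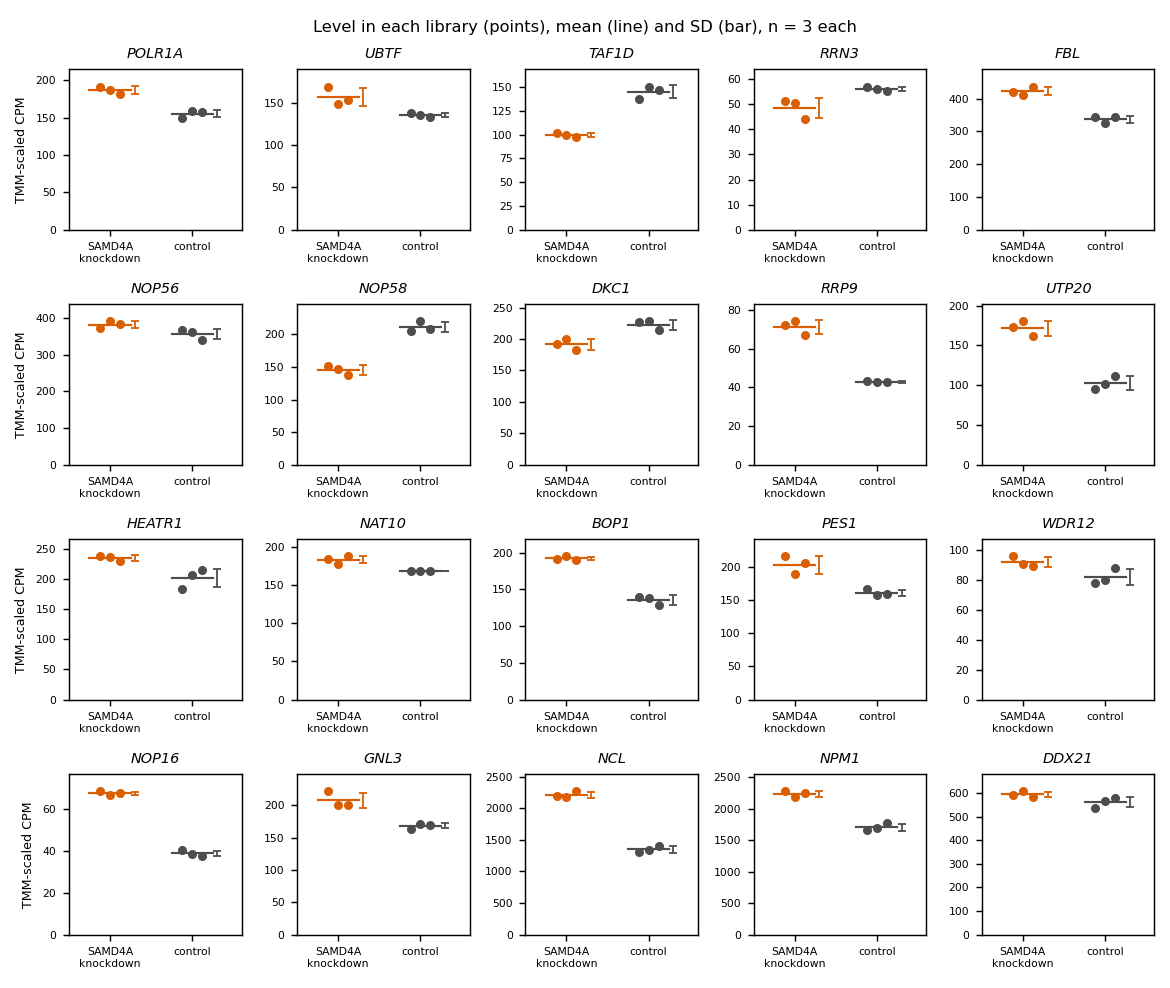
TMM-scaled CPM of 20 members in each library (points), with the mean (line) and SD (bar) of 3 libraries per group, SAMD4A knockdown left of control, and each axis starting at 0. TAF1D, RRN3, NOP58 and DKC1 are lower in knockdown, NOP56 and DDX21 were not called, and the other 14 were called higher; POLR1A, UBTF, HEATR1, NAT10 and WDR12 lost that call with total counts only, where NAT10 turned to -0.04.

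Among the members, small-subunit genes gave the smallest median shift of the 5 roles. Of 14 genes, 7 were called higher (UTP20, UTP3, NOP14, HEATR1, WDR75, BYSL, NAT10), 0 lower (also 0 with DESeq2, with limma-voom and at an unadjusted edgeR p under 0.05) and 7 not called (UTP4, RRP12, WDR43, UTP11, UTP15, NOB1, UTP14A), with a median log2 fold change of 0.06. All 7 of the uncalled genes were called lower with total counts only, where 3 were higher and the median was -0.10. The order of the roles did not hold in the pathway genes outside the 54. There the snoRNP list had the smallest median, 0.10, and the small-subunit list had 0.17. UTP20 (chr12:101280105-101386618, plus strand), a very large scaffold protein, had 173, 180.1 and 162 CPM in the knockdown libraries, against 95.2, 101 and 112 CPM in the control libraries. UTP3, an early factor, had 76.3, 78.5 and 76.9 CPM in the knockdown libraries, against 51, 54.7 and 57.2 CPM in the control libraries. Neither gene overlapped between groups, and their log2 fold changes were 0.74 ± 0.06 (SE, edgeR adjusted p = 1.2e-07) for UTP20 and 0.51 ± 0.06 (edgeR adjusted p = 5e-06) for UTP3. NOP14, a component of the processome core, averaged 101 ± 3.03 CPM in knockdown and 75.2 ± 2.78 CPM in control (SD, n = 3 each; log2 fold change 0.42 ± 0.05, edgeR adjusted p = 1e-05).

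The UTP-A group, which binds the start of the precursor and is tied to its transcription, is represented by HEATR1, WDR75, WDR43, UTP4 and UTP15. HEATR1 had 238, 237 and 229.8 CPM in the knockdown libraries, against 184, 207 and 215 CPM in the control libraries. The knockdown values were close together and above the more scattered controls (log2 fold change 0.22 ± 0.05, edgeR adjusted p = 0.0036). WDR75 averaged 109 ± 5.33 CPM in knockdown and 95.5 ± 4.76 CPM in control (SD, n = 3 each; 0.19 ± 0.06, edgeR adjusted p = 0.01). WDR43, UTP4 and UTP15 overlapped between groups, with log2 fold changes of -0.03, -0.01 and -0.07, and none was called. UTP20 to HEATR1 counts had a ratio of 0.729 ± 0.0279 in knockdown and 0.508 ± 0.0173 in control (SD, n = 3 each), so 2 genes of the processome that were both called higher did not move by the same factor.

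NAT10, the acetyltransferase of small-subunit rRNA, had 185, 178 and 188 CPM in the knockdown libraries, against 169, 168 and 169 CPM in the control libraries. The groups were apart but the gap was small (0.12 ± 0.04, edgeR adjusted p = 0.034), and the call was lost in 7 of 16 alternatives. BYSL, which acts late in small-subunit maturation, was as near the threshold (0.17 ± 0.06, edgeR adjusted p = 0.032) and lost its call in 9. UTP14A, an activator of the processome helicase in yeast, had 74.4, 65.5 and 63.5 CPM in the knockdown libraries, against 70.6, 75.2 and 74.1 CPM in the control libraries. NOB1, the nuclease that makes the final cut at the end of the small-subunit rRNA, had 102, 90.6 and 103 CPM in the knockdown libraries, against 111, 106 and 98.7 CPM in the control libraries. Both overlapped between groups and neither was called, though UTP14A was called lower without knockdown replicate 1 as well as with total counts only (-0.11 ± 0.07, edgeR adjusted p = 0.17 for UTP14A, and -0.09 ± 0.06, edgeR adjusted p = 0.23 for NOB1). UTP11 and RRP12, the last with a role in export of subunits, had log2 fold changes of -0.04 and -0.02.

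Among the members, large-subunit assembly genes had the largest share of higher calls. Of 17 genes, 13 (76.5%) were called higher and 4 not called (PPAN, NOP53, BRIX1, NOP2), with a median log2 fold change of 0.30. The number called lower was 0, also with DESeq2, with limma-voom and at an unadjusted edgeR p under 0.05. With total counts only 8 were higher and 0 lower, and snoRNP members had the larger share of higher calls (5 of 9). Outside the 54, large-subunit genes were 48.9% higher, under the lists of RNA polymerase I (58.3%, with subunits shared by other polymerases) and the small subunit (54.8%). NOP16 (chr5:176383938-176388927, minus strand), an assembly factor, had the highest fold change of the 54 genes. It measured 68.4, 67 and 67.5 CPM in the knockdown libraries, against 40.2, 38.7 and 37.5 CPM in the control libraries (log2 fold change 0.80 ± 0.06, edgeR adjusted p = 5.6e-08). The 3 knockdown values lay within 2 CPM of each other and far above the controls. HIGD2A overlaps NOP16 on the other strand with a mean count of 922 against 1061, so its level is uncertain.

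BOP1, PES1 and WDR12 form the PeBoW complex, which acts in the processing that separates the large-subunit rRNAs. BOP1 had 192, 195 and 190.0 CPM in the knockdown libraries, against 139.7, 139 and 128 CPM in the control libraries. PES1 had 216, 189 and 206 CPM in the knockdown libraries, against 166, 158 and 159 CPM in the control libraries. WDR12 had 95.4, 90.6 and 88.8 CPM in the knockdown libraries, against 77.8, 79.4 and 87.9 CPM in the control libraries. All 3 were called higher, with log2 fold changes of 0.50 ± 0.05 for BOP1 (SE, edgeR adjusted p = 5.8e-07), 0.34 ± 0.05 for PES1 (edgeR adjusted p = 8.5e-05) and 0.16 ± 0.06 for WDR12 (edgeR adjusted p = 0.031). In WDR12 the highest control, replicate 3, nearly reached the lowest knockdown library, and its call was lost in 5 of 16 alternatives.

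GNL3, the GTPase nucleostemin, had 222, 201 and 201 CPM in the knockdown libraries, against 164, 172 and 169.6 CPM in the control libraries. Its relatives GNL3L and GNL2 averaged 70.0 ± 5.33 CPM in knockdown and 58.3 ± 3.17 CPM in control for GNL3L and 143 ± 6.41 CPM in knockdown and 128 ± 2.35 CPM in control for GNL2 (SD, n = 3 each). All 3 GTPases were called higher (0.30, 0.26 and 0.16, edgeR adjusted p = 0.00013, 0.0044 and 0.012), although GNL3L lost the call with total counts only, and GNL2 both there and with upper-quartile factors. EBNA1BP2 (0.46), RRS1 (0.40), NIP7 (0.39) and MRTO4 (0.39), all factors of nuclear large-subunit particles, were higher under every scaling tried. RRP1 and its paralog RRP1B were called higher at 0.26 and 0.12, and RRP1B lost its call in 6 of 16 alternatives and turned to -0.04 with total counts only.

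BRIX1, whose yeast counterpart binds that of EBNA1BP2, had 65.7, 68 and 64 CPM in the knockdown libraries, against 62, 63.1 and 64.2 CPM in the control libraries. Its groups overlapped and it was not called (0.06 ± 0.06, edgeR adjusted p = 0.38). NOP53 averaged 274 ± 15.5 CPM in knockdown and 253 ± 6.16 CPM in control (SD, n = 3 each) and was not called (0.11 ± 0.05, edgeR adjusted p = 0.065). NOP2, an rRNA methyltransferase, had 0.498, 0.356 and 0.540 CPM in the knockdown libraries, against 0.523, 0.738 and 0.189 CPM in the control libraries. That is a mean of 9.5 counts per library, another gene row covers it on the same strand, and nothing can be read from its level (-0.05 ± 0.51). PPAN averaged 5.26 ± 0.280 CPM in knockdown and 4.10 ± 0.372 CPM in control (SD, n = 3 each); it overlaps same-strand rows including a read-through gene, and was not called (0.36 ± 0.17, edgeR adjusted p = 0.091).

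The other nucleolar genes include the most abundant ones. NCL (chr2:231453531-231483641, minus strand), which encodes the major nucleolar phosphoprotein nucleolin, had 2202, 2176 and 2268 CPM in the knockdown libraries, against 1308, 1335 and 1411 CPM in the control libraries. NPM1, the histone chaperone that fills the outer nucleolar layer, had 2275, 2191 and 2243 CPM in the knockdown libraries, against 1660, 1696 and 1769 CPM in the control libraries. Both were higher in every knockdown library, NCL by 0.71 ± 0.04 (edgeR adjusted p = 2.1e-09) and NPM1 by 0.39 ± 0.04 (edgeR adjusted p = 9.8e-07). NCL to NPM1 counts stood at 0.991 ± 0.0218 in knockdown and 0.791 ± 0.00603 in control (SD, n = 3 each). NPM1 has 49 pseudogene rows in the table, the largest with a mean count of 1410 against 39510, so its level is uncertain. DDX21, a helicase that links RNA polymerase I and processing, had 591, 606 and 583 CPM in the knockdown libraries, against 536, 567 and 579.8 CPM in the control libraries, and LYAR had 66.6, 67.5 and 69.2 CPM in the knockdown libraries, against 60.8, 67.4 and 68.1 CPM in the control libraries. LYAR overlapped between groups, DDX21 was apart by a narrow gap, and neither was called (edgeR adjusted p = 0.13 for DDX21 and 0.51 for LYAR). NPM3, a relative of NPM1, was not called either (0.10 ± 0.05, edgeR adjusted p = 0.12). With total counts only NCL and NPM1 remained higher, while the median of these 5 genes was -0.06.

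On a scale of CPM per kilobase of exon, NPM1 was the most abundant member, with 1694 in knockdown and 1294 in control, followed by NCL with 565 in knockdown and 344 in control and FBL with 376 in knockdown and 299.8 in control. NOP10 had 192 in knockdown and 146 in control, and NHP2 had 190.4 in knockdown and 142 in control, while DKC1 had 77.6 in knockdown and 90.2 in control and GAR1 43.1 in knockdown and 37.3 in control. Beside NOP2 and PPAN, the lowest members on this scale were UTP15 and GNL3L. UTP15 had 7.49 in knockdown and 7.86 in control, and GNL3L had 8.06 in knockdown and 6.71 in control. The exon length used was 5096 bases for UTP15 and 8684 bases for GNL3L. The transcripts used below for GC content are shorter, with 2057 bases for UTP15 and 2357 bases for GNL3L. Their place as the lowest members therefore depends on the length used.

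Genes of the pathway outside the 54 were counted by the same roles. Of 126 such genes 125 were tested, and 62 were called higher (49.6%) and 18 lower (14.4%), with a median log2 fold change of 0.17. With total counts only 41 were higher and 35 lower, and the median was 0.01. Of 12 further genes of RNA polymerase I, 7 were higher (58.3%) and 1 lower (8.33%), beside 26.1% and 25.6% of all genes tested. The list includes subunits shared with other polymerases. Of these POLR2E, POLR2F, POLR2H and POLR2L were called higher and POLR2K was not called. Among the genes not shared, POLR1G, TAF1C and TTF1 were called higher. POLR2L, a small subunit shared by the nuclear polymerases, was at 83.2 ± 4.83 CPM in knockdown and 43.7 ± 3.14 CPM in control (log2 fold change 0.93, edgeR adjusted p = 3.3e-08), and POLR1G at 66.8 ± 2.62 CPM in knockdown and 43.3 ± 2.14 CPM in control (0.63, 1.2e-06). POLR1H was lower, at 10.6 ± 1.13 CPM in knockdown and 13.3 ± 0.816 CPM in control (-0.33, 0.028), and lost its call with DESeq2, with the replicate block, without any 1 of the controls and without knockdown replicate 3. Of 11 further snoRNP genes, 4 were higher (36.4%) and 1 lower (9.09%). SHQ1, a chaperone of DKC1, was higher (0.61) and so was TGS1, which caps snoRNAs (0.44), while ZNHIT6, a box C/D assembly factor, was lower (-0.37; edgeR adjusted p = 1.3e-05, 4.6e-05 and 0.00047).

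In the small-subunit list 23 of 42 tested genes were higher (54.8%) and 2 lower (4.76%). The 23 include DDX47, at 0.966 ± 0.323 CPM in knockdown and 0.382 ± 0.120 CPM in control, whose row is very low and cannot be read. NOL6 averaged 149 ± 3.05 CPM in knockdown and 78.8 ± 2.34 CPM in control and IMP3, a U3 snoRNP protein, 119 ± 5.02 CPM in knockdown and 63.9 ± 0.873 CPM in control (log2 fold changes 0.92 and 0.90, edgeR adjusted p = 1.1e-09 and 3e-09). The 2 lower genes, RIOK2 (-0.76) and RIOK1 (-0.44), encode atypical kinases of late cytoplasmic maturation (edgeR adjusted p = 3e-07 and 7.9e-05). Of 45 large-subunit genes 22 were higher (48.9%) and 11 lower (24.4%), the last close to the 25.6% of all genes tested. FTSJ3, a methyltransferase of rRNA processing, and URB1 were the largest rises (0.74 and 0.57, edgeR adjusted p = 1.3e-08 and 1.2e-07). SBDS, which acts in the last cytoplasmic step, and WDR74 were the largest falls (-0.48 and -0.39, edgeR adjusted p = 0.00011 and 5.7e-05). A list of 15 genes that trim the precursor held the exosome, its helpers and the separate exonuclease XRN2, which was called higher. The 15 genes divided into 6 higher, led by EXOSC2 (0.59) and EXOSC4 (0.51), and 3 lower, led by EXOSC8 (-0.67) and EXOSC1 (-0.29). These are 40.0% and 20.0% of the list, beside 26.1% and 25.6% of all genes tested, and over 15 genes nothing is read from the split. The edgeR adjusted p-values were 2.7e-06, 0.00016, 1.6e-06 and 0.012, and the call of EXOSC1 was lost without control replicate 1 or 2.

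**Figure D4:**
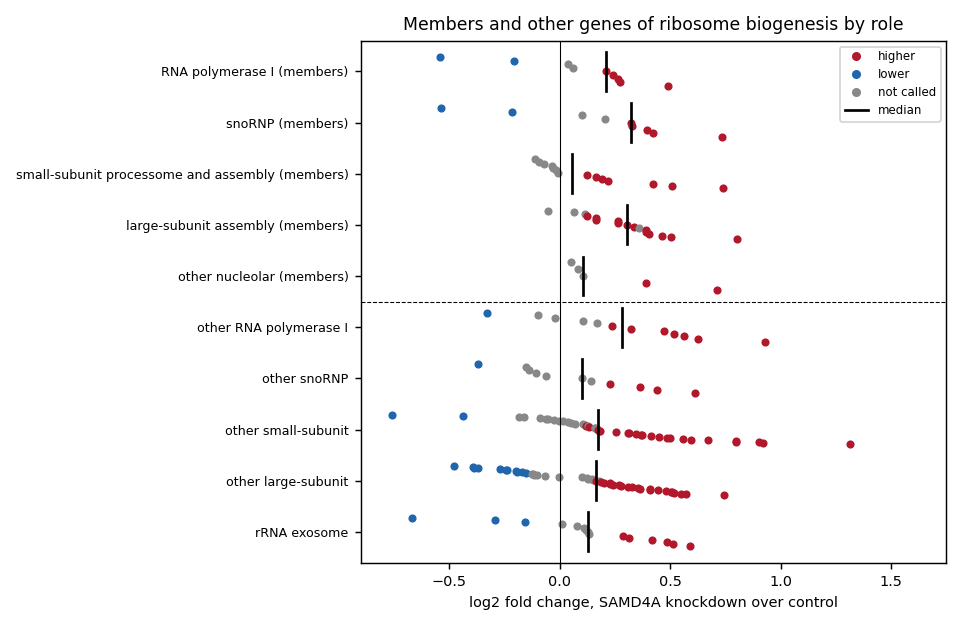
Log2 fold changes, SAMD4A knockdown over control, of the members (above the dashed line) and of other genes of the pathway (under it) by role, with a black bar at each median. Red and blue points passed the edgeR test at an adjusted p under 0.05. The medians run from 0.06 (small-subunit members) to 0.32 (snoRNP members), and with total counts only those of small-subunit and other nucleolar members were -0.10 and -0.06.

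Of 12 regulators, 2 were higher (16.7%) and 4 lower (33.3%), beside 26.1% and 25.6% of all genes tested. MXD4 and MXD3, which encode partners of MAX that oppose MYC, were higher (0.79 and 0.67, edgeR adjusted p = 2.1e-05 and 0.0013), and MXI1 of the same family was lower (-0.66, edgeR adjusted p = 0.00065). MYC had 109.9, 117 and 121 CPM in the knockdown libraries, against 200.2, 178 and 178 CPM in the control libraries. It was lower in every knockdown library (log2 fold change -0.68 ± 0.06, edgeR adjusted p = 1.4e-07). MYCN, its relative in stem cells, averaged 182 ± 22.7 CPM in knockdown and 176 ± 3.66 CPM in control and was not called (0.05 ± 0.07, edgeR adjusted p = 0.6). MDM2, a ubiquitin ligase, and CDKN1A, a cell cycle inhibitor, were not called, and MDM2 was called lower with total counts only (-0.10 and 0.19, edgeR adjusted p = 0.25 and 0.26). The part of these regulators in the fold changes of the members was not tested.

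Fold change varied with transcript base composition across the whole table. In 10 equal bins of all genes by GC content, the median log2 fold change ran from -0.15 in the lowest bin to 0.08 in the highest. Members had a median GC content of 49.8% against 49.6% for all genes, and 44 of 54 stood above the median of their own bin. Over the members, GC content and log2 fold change had a Pearson r of 0.29 and a Spearman rho of 0.29 (n = 54 genes, which share the same 6 libraries), against 0.09 and 0.13 over 17116 genes. In 3 equal groups by GC content, the lowest 18 members had 9 higher and 3 lower, the middle 18 had 13 and 1, and the highest 18 had 10 and 0. Over all genes, lower calls also fell, from 35.7% in the lowest of the 10 bins to 18.8% in the highest. Higher calls rose from 15.6% to 32.2% between the same bins, so fewer lower calls at high GC are not particular to the members. With a correction for transcript GC and length, chosen after seeing the data, 34 members were higher and 3 lower.

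**Figure D5:**
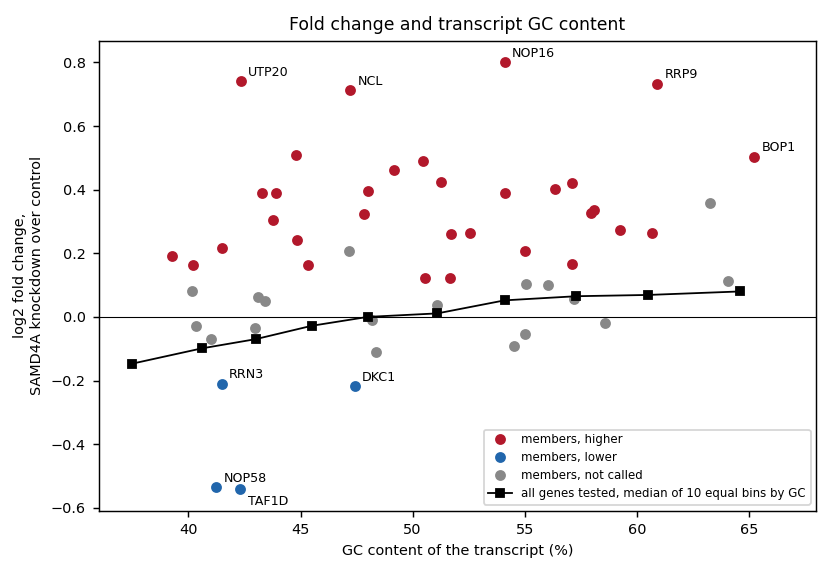
Log2 fold change, SAMD4A knockdown over control, against the GC content of the transcript for the 54 members (points, coloured by call) and the median of all genes tested in 10 equal bins by GC content (black squares). The squares climb from -0.15 to 0.08, and 44 of the 54 points lie above the median of their bin.

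Some members hold snoRNA genes within their span, on their own strand. There are 10 such hosts, and 3 were higher (POLR1C, GNL3, NCL), 3 lower (TAF1D, NOP58, DKC1) and 4 not called (NOP56, WDR43, PPAN, NOP53). Of the other 44 members 29 were higher, 1 lower and 14 not called. Among all genes tested 26.1% were higher and 25.6% lower. The split by host was not planned, and over 10 hosts nothing is read from it. TAF1D holds the most, with 8 snoRNA rows. Their own counts were low, at most 10.5 on average in TAF1D, and poly-A selection samples them poorly, so no snoRNA level is given.

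SAMD4A is related to fly Smaug, which binds hairpins with a CNGGN loop. Hairpins of this kind, a CNGGN loop closed by 5 base pairs with G-U pairs allowed, were searched in 1 transcript per gene of GENCODE 29, a search chosen after fold changes were known. At least 1 site lay in the 3′ UTR of 6 of the 54 members (11.1%) and of 18.9% of 13913 tested coding genes. Per kilobase of 3′ UTR the rates were 0.145 in members and 0.147 in all. Among members called lower 2 of 4 held one, RRN3 and DKC1, as did 3 of 32 called higher and 1 of 18 not called. Over whole transcripts, 3 of the 4 lower members held a site, since TAF1D had 1 across the end of its coding sequence. RRN3 had a further 1 in its coding sequence. Sites lay in 44.4% of whole transcripts of tested coding genes, 29.6% of those of members and 8 of 32 of members called higher. Over 4 genes nothing is read from this. The 3′ UTR sites of RRN3 and DKC1 are given with the loop in capitals, as those of the lower members, on GRCh38 chromosomes 16 and X.
RRN3, transcript bases 2198 to 2212: gaagaCTGGGttttt
RRN3, transcript bases 2346 to 2360: aattaCTGGGtaatt
DKC1, transcript bases 1905 to 1919: gttacCTGGTgtggt
These are matches of letters, and SAMD4A binding was not measured.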

How the data were processed

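Raw counts per gene were deposited by the authors for 6 libraries, not normalized. GRCh38, HISAT2 and HTSeq are named in the submitters' processing notes. The sources used here give no versions, no counting options and no strand setting, which matters for 29 members that overlap a gene on the other strand. Counts were tested in R 4.3.3 with edgeR 4.0.16 (filterByExpr, TMM factors, quasi-likelihood test, two-sided, Benjamini-Hochberg adjustment over 17258 genes, threshold 0.05). The biological coefficient of variation was 7.47%. Replicate libraries differed by more than sampling noise (chi-square per degree of freedom 2.68 to 7.25 within groups), so all were kept as separate samples. The SE of a fold change was taken as its size over the root of F. Alternatives used DESeq2 1.42.0, limma 3.58.1, other scalings and filters, a replicate block, each library left out, and an offset from mgcv 1.9.3 for GC content and length. The scripts were tested on simulated counts. Members and lists were chosen with earlier results of these data known. Values of each library are given for 15 members picked by role, and for the 2 highest and 2 lowest fold changes in each role; of other pathway genes, the 2 largest rises and falls in each list were named, if called and at 1 CPM or more on average, with MYC, MYCN, MDM2 and CDKN1A always. Promoters come from RefSeq and transcripts from GENCODE 29. Protein sequences were not used here. A regulator covered by the naming rule is not reported here.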

Additional observations from a re-analysis of the deposited data

How the results depend on the processing

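Over 16 alternatives, 23 of the 36 called members kept the same call in each (20 higher, 3 lower), and every member change of sign in a called gene came from scaling by total counts only, where NAT10 and RRP1B were at -0.036 and -0.035. That setting gave 2704 genes higher, 20 members higher, 11 members lower, and 41 other pathway genes higher and 35 lower. Upper-quartile factors gave 27 members higher and 4 lower. Leaving out 1 library gave 27 to 32 members higher and 3 to 5 lower, 55 to 63 other pathway genes higher and 12 to 18 lower, and 3807 to 4821 genes higher and 3602 to 4808 lower. Replicate numbers are shared by the groups, but same-numbered libraries did not deviate together (r = -0.02, -0.01 and -0.04), so the numbers do not pair them; with the replicate block 32 members were higher and 4 lower, and 4289 genes higher and 4185 lower. Calls were lost by BYSL in 9 alternatives, NAT10 in 7, RRP1B in 6, WDR12 in 5 and RRN3 in 4, by WDR75 and GNL2 in 2 alternatives each, and by POLR1A, POLR1B, UBTF, HEATR1, RRP1 and GNL3L with total counts only. Of the 18 uncalled members 5 had no call in any alternative. GAR1 was called higher in 6. Outside total counts, NOP56 was called higher and UTP14A lower without knockdown replicate 1, NOP53 higher without knockdown replicate 2, NPM3 higher without control replicate 1, and BRIX1 and DDX21 higher with the GC and length offset. The rows of NOP2 and PPAN are low, with overlapping rows on their strand, and the part of these overlaps was not tested.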
